A study of Mus musculus with 2 samples.

Results

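The laminin and integrin genes of mouse colon were taken as all protein-coding genes whose GENCODE symbol names a laminin alpha, beta or gamma chain or an integrin alpha or beta subunit. The symbol rule found 37 genes, made up of 11 laminin chains, 18 integrin alpha subunits and 8 integrin beta subunits, among 21474 protein-coding genes and 69691 features of the gene table. The data were poly-A+ RNA sequenced from whole colon of C57BL/6J mice aged 8 weeks, with no treatment named, as stranded paired reads of 76 bases from RNA longer than 200 bases. A single group of 2 libraries was labelled as biological replicates 1 and 2. Both carried the same donor record, with littermates of both sexes pooled and health state unknown, so their spread may be partly technical, and the design compared no conditions. The libraries summed to 46689262 and 45966841 estimated counts. Below, paired values give replicate 1 first and replicate 2 second, and levels are gene-level TPM (a length-corrected share of a library's RNA molecules), unless another measure is named.

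Laminins are cross-shaped proteins of 1 alpha, 1 beta and 1 gamma chain, named by their chain numbers, that polymerise into the basement membrane under epithelia and around muscle cells and vessels. Integrins are receptors of 1 alpha and 1 beta subunit that span the plasma membrane and tie such matrices to the cytoskeleton. The alpha 3, alpha 6 and alpha 7 subunits bind laminins, alpha 6 beta 4 anchors epithelia through hemidesmosomes, several alpha subunits bind ligands with an Arg-Gly-Asp (RGD) motif, and the beta 2 and beta 7 integrins serve leukocytes.

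Both libraries carried the RNAs of an epithelium on a muscle wall. The 10 epithelial marker genes summed to 14930 and 14731 TPM, led by Krt19, Krt8 and Lgals4, and the 10 smooth muscle genes to 7133 and 7040 TPM, led by Acta2, Tagln and Actg2. In 2 marker lists every gene was called higher in replicate 2. The 12 pancreatic acinar genes made up 0.0454% and 3.50% of all TPM, led by Ctrb1, Cela2a and Prss2, and the 5 red blood cell genes, led by Hba-a2, Hba-a1 and Hbb-bs, summed to 525 and 2998 TPM. Here and below, a gene was called different between the libraries when its counts differed at least 2-fold at a Benjamini-Hochberg adjusted p of at most 0.05 in an exact binomial test, which covers counting error only. All 12 acinar and all 5 red blood cell genes were called, against 6.35% of 17713 genes tested. The part of this RNA in the member values was not tested. Expressing TPM relative to protein-coding genes without acinar and mitochondrially encoded genes multiplied the members' mean levels by 1.17 to 1.18. This rescaling applies the same factor to every gene of a library, so it cannot show that part. In bulk tissue, fewer cells of a type and less RNA per cell cannot be told apart.

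Nearly every member was detected. At a TPM of at least 1 in both libraries stood 34 of the 37 genes, 91.9% against 57.9% of all protein-coding genes, and 17 members reached a TPM of 10 in both, 45.9% against 33% of protein-coding genes. Lama1, Itgb8 and Itgad were under 1 in both libraries, with values between 0.09 and 0.65. The laminins summed to 347 ± 10.5 TPM (SD, n = 2), the alpha subunits to 346 ± 15.6 and the beta subunits to 243 ± 3.43. With all members ordered by mean TPM, the library ranges of 22 of the 36 neighbouring pairs overlapped, so the order is coarse.

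**Figure D1:**
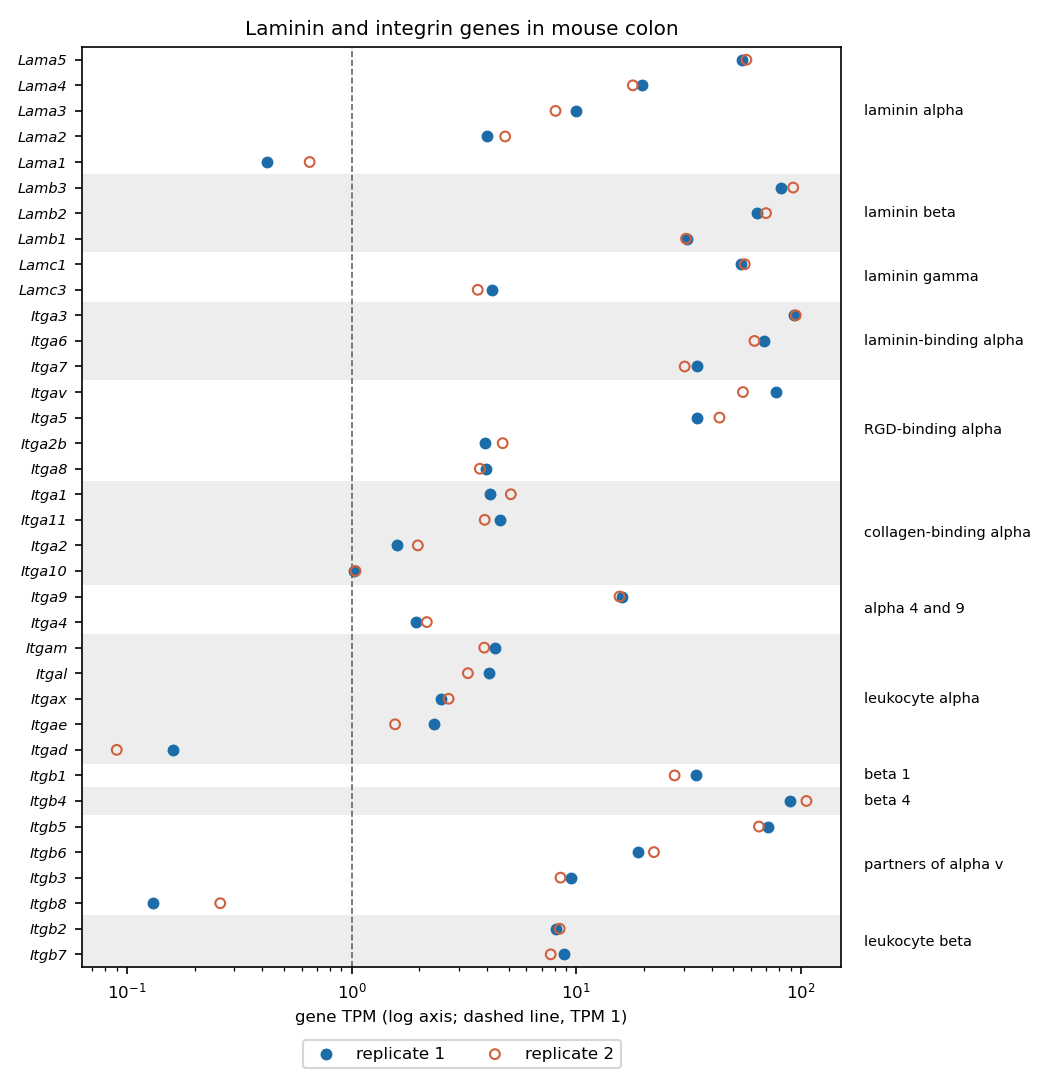
Gene TPM (log axis) of 36 laminin and integrin genes by role in replicate 1 (filled) and replicate 2 (open), with a dashed line at TPM 1. Only Lama1, Itgad and Itgb8 lie left of the line, and Itgb4, Itga3 and Lamb3 lie farthest right.

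The members lie on many chromosomes, with 1 group of neighbours described here (GRCm38, from the GENCODE annotation). Itgam (chr7:128062640-128118491), Itgax (chr7:128129547-128150657) and Itgad (chr7:128154376-128223816), which encode beta 2 partners, lie in that order on the plus strand. Lamc1 lies at chr1:153218922-153332786 on the minus strand. Of the highest members, Itgb4 lies at chr11:115974709-116008412 on the plus strand, Itga3 at chr11:95044474-95076801 on the minus strand and Lamb3 at chr1:193207699-193343878 on the plus strand.

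Among the laminin alpha chains, which carry the globular domains that bind receptors, Lama5 led. Lama5, the main alpha chain of adult epithelial and vascular basement membranes, measured 54.6 and 57.1 TPM, or 61.7% and 64.5% of the summed alpha chains. Lama4, a chain of vessel and muscle basement membranes, measured 19.5 and 17.9 TPM. Lama3, the alpha chain of laminin 332, measured 9.95 and 8.08 TPM. Those chains kept this order in each library. Lama2, the muscle and nerve chain, measured 3.99 and 4.82 TPM. Lama1, the chain of embryonic basement membranes, measured 0.42 and 0.65 TPM and was the lowest laminin in both libraries.

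The beta chains were led by the chain that occurs only in laminin 332. Lamb3 measured 81.7 and 92.3 TPM, or 46.2% and 47.8% of the summed beta chains. Lamb2 measured 64.0 and 69.9 TPM. Lamb1 measured 31.1 and 30.8 TPM. The ranges of the 3 beta chains did not overlap. Among the gamma chains, Lamc1, shared by most laminins, measured 54.3 and 56.2 TPM. Lamc3 measured 4.23 and 3.64 TPM.

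The Lama3 and Lamb3 chains of laminin 332 were thus present at unequal levels, with Lamb3 above Lama3 by 8.21- and 11.4-fold. The imbalance was as large with complete coding transcripts alone (protein-coding models with an annotated start and end), at 8.21- and 11.4-fold. The Lama5 and Lamc1 chains of laminins 511 and 521 had ratios of 1.01 and 1.02 by gene TPM. The ratio of Lama5 to Lamc1 was below 1 by the other measures, at 0.852 and 0.972 over complete coding transcripts and at 0.785 and 0.876 with all counts over the longest complete coding transcript. Of 14 laminin trimers listed from textbook chain combinations, 12 had every chain at a TPM of at least 1, and the exceptions, 111 and 121, both lacked Lama1 at that level. RNA levels do not give the amount of assembled trimer.

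The laminin-binding alpha subunits summed to 191 ± 5.93 TPM (SD, n = 2), more than any other alpha class. Itga3, which pairs with beta 1 in epithelia, measured 92.6 and 94.8 TPM. Itga6, the partner of beta 1 and beta 4, measured 68.6 and 62.1 TPM. Itga7, a muscle receptor of laminins, measured 34.4 and 30.4 TPM. By gene TPM Itga3 was above Itga6, and Itga6 above Itga7, in each library. Over complete coding transcripts Itga6 was below Itga7 in both libraries, at 10.2 and 11.9 against 34.4 and 30.4 TPM. Itga7 had only 1 quantified transcript, a complete coding one, so its level could not change with this measure.

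Of the RGD-binding alpha subunits, Itgav, the vitronectin receptor subunit, measured 77.1 and 55.2 TPM, the widest spread of the highly expressed members. Itga5, the fibronectin receptor subunit, measured 34.3 and 43.4 TPM. By gene TPM both stood well above Itga2b, the platelet subunit, at 3.92 and 4.70 TPM. Itgav and Itga5 also stood well above Itga8, a subunit of smooth muscle and mesenchyme, at 3.97 and 3.72 TPM. The ranges of Itga2b and Itga8 overlapped. Over complete coding transcripts Itgav was at 2.76 and 3.41 TPM and Itga2b at 1.11 and 1.18 TPM. The latter made up 28.3% and 25.1% of Itga2b TPM. A retained intron model, Itga8-204, held 80.8% and 67.7% of Itga8 TPM, and the gene's complete coding transcript was at 0.76 and 1.20 TPM, under the detection threshold in replicate 1. Beside Itga2b, the 8 platelet and megakaryocyte markers summed to 83.9 and 56.3 TPM, nearly all of it from Pf4 and Gp1bb, while the defining markers Gp9 and Gp1ba were between 0.01 and 0.09 TPM. Ppbp, at 0.31 and 0.72 TPM, was the only gene of that list called different between the libraries.

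The collagen-binding alpha subunits were low, with a sum of 11.7 ± 0.509 TPM (SD, n = 2). Itga1 measured 4.13 and 5.11 TPM. Itga11, a fibroblast subunit, measured 4.57 and 3.91 TPM. Itga1 and Itga11 overlapped. Itga2, an epithelial and platelet subunit, measured 1.59 and 1.97 TPM. Itga10, known from cartilage, measured 1.02 and 1.04 TPM, just above the detection threshold. In the alpha 4 and alpha 9 pair, Itga9, a receptor of tenascin and of VCAM-1, measured 15.9 and 15.6 TPM. Itga4, a leukocyte homing subunit, measured 1.93 and 2.16 TPM, and the 2 ranges lay far apart.

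The leukocyte alpha subunits were all under 5 TPM. Itgam, the myeloid subunit CD11b, measured 4.34 and 3.89 TPM. Itgal, the LFA-1 subunit, measured 4.10 and 3.29 TPM. Itgax, the CD11c subunit of dendritic cells and macrophages, measured 2.49 and 2.70 TPM. The ranges of Itgam and Itgal overlapped, and Itgax lay below both. Itgae, the CD103 subunit of intraepithelial lymphocytes, measured 2.33 and 1.56 TPM. Itgad measured 0.16 and 0.09 TPM. Its counts with those of neighbouring Itgax summed to the whole numbers 371 and 386 although each gene's counts were fractional, so reads were split between them and the Itgad level is uncertain. Beside these subunits, macrophage markers summed to 372 and 332 TPM, led by C1qc, C1qb and C1qa. B cell markers summed to 38.9 and 47.1 TPM, led by Cd79a, Cd79b and Cd22, with Ms4a1 called at 0.18 and 0.47 TPM. T cell markers summed to 14.3 and 15.6 TPM, led by Lck, Cd4 and Trac, with Trac called at 0.67 and 3.12 TPM. Of the neutrophil markers, led by Ly6g, Csf3r and S100a9, the defining S100a8 and S100a9 were listed at 0 in replicate 1 and at 0.29 and 0.44 TPM in replicate 2.

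Among the beta subunits, Itgb4 was highest, and it was also the highest of all members by mean TPM, with a range that overlapped that of Itga3. Itgb4, whose long cytoplasmic tail binds plectin in hemidesmosomes, measured 89.5 and 106 TPM. Itgb1, the partner of 12 alpha subunits, measured 34.0 and 27.4 TPM. Itgb4 thus exceeded Itgb1 by 2.63- and 3.86-fold. Of the alpha v partners, Itgb5 measured 71.3 and 65.0 TPM. Itgb6, an epithelial activator of TGF-beta, measured 18.9 and 22.2 TPM. Itgb3, the platelet and endothelial subunit, measured 9.48 and 8.50 TPM. By gene TPM these followed the order Itgb5, Itgb6, Itgb3 in each library, with Itgb8, another activator of TGF-beta, last at 0.13 and 0.26 TPM. The leukocyte subunits were close to each other: Itgb2 measured 8.16 and 8.43 TPM. Itgb7 measured 8.80 and 7.69 TPM, a range that held that of Itgb2.

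Several subunits that pair with each other were far from equal in RNA. The 12 alpha partners of Itgb1 summed to 340 and 319 TPM, 9.99 and 11.7 times Itgb1, and 5.62 and 7.01 times it over complete coding transcripts. Of these partners, Itga4, Itga6 and Itgav also pair with other beta subunits. Itga3 alone exceeded Itgb1 by 2.72- and 3.46-fold. The 4 collagen-binding subunits together reached 0.332 and 0.439 of Itgb1. In the leukocyte group, the 4 alpha partners of Itgb2 summed to 1.36 and 1.18 times Itgb2 by gene TPM and to 1.58 and 2.45 times it over complete coding transcripts, whereas Itga4 and Itgae together reached 0.484 and 0.484 of Itgb7. Of 24 integrin pairs, 22 had both subunits at a gene TPM of at least 1, and alpha D beta 2 and alpha v beta 8 did not. Over complete coding transcripts alpha 8 beta 1 and alpha 10 beta 1 also fell short. By that measure Itga8 was at 0.76 and 1.20 TPM and Itga10 at 0.87 and 1.04 TPM. With all counts over the longest complete coding transcript, Itga10 was at 0.888 and 1.04 TPM.

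Several gene levels rested on short or non-coding transcripts, which touches the comparisons above. Across the 37 genes, 181 transcripts were quantified, of which 66 were complete coding transcripts. Complete coding transcripts held 71.8% and 72.9% of the members' summed TPM but 93.7% and 94.4% of their counts. The same number of reads gives a higher TPM on a shorter model. In 3 members, complete coding transcripts also held under 50% of counts in both libraries. These shares of counts were 36.0% and 49.5% for Itgav, 30.0% and 36.9% for Itga6 and 37.8% and 48.8% for Itgb6. Complete coding transcripts held at least 90% of TPM in both libraries for 18 members. Some of these, such as Itga5 and Itga7, had no other quantified transcript, so their share was fixed at 100%. For 6 members complete coding transcripts held under 50% of TPM in both libraries. Each member's counts were therefore also divided by the effective length of its longest complete coding transcript, on the TPM scale (the full-length measure).

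**Figure D2:**
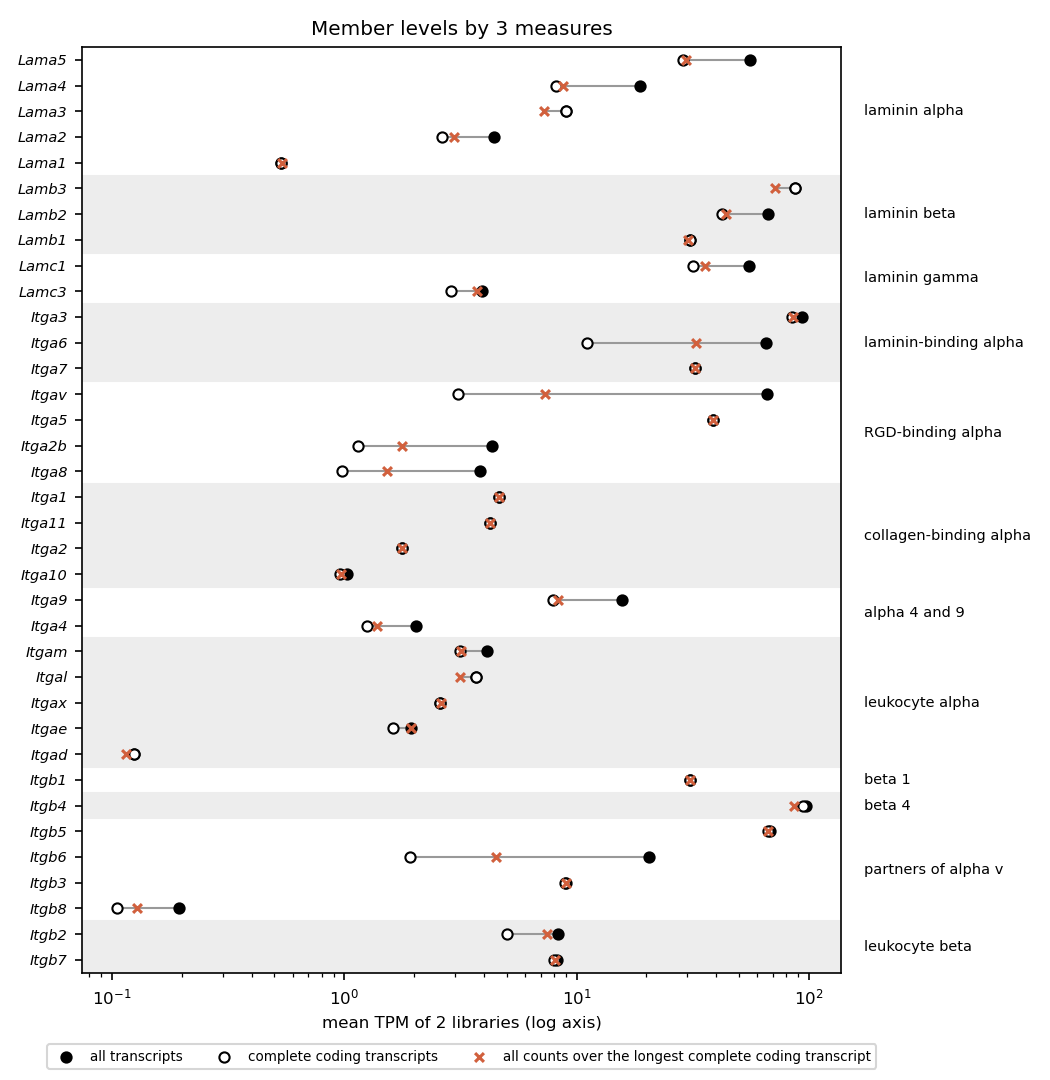
Mean TPM of 2 libraries (log axis) for 36 members from all transcripts (filled), from complete coding transcripts (open) and from all counts over the longest complete coding transcript (crosses). The longest bars belong to Itgav, Itgb6 and Itga6, and Itgb1, Itga5 and Itga7 hardly move. Itga5 and Itga7 have only 1 quantified transcript each, so they could not move.

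Itgav had the largest gap. Its complete coding transcript Itgav-201 measured 2.76 and 3.41 TPM, from 692 and 842 counts. Itgav-206, a model of 3 exons and 688 bases without an annotated end, was assigned 62.5 and 45.3 TPM, from 1092 and 798 counts. By the full-length measure Itgav was at 7.68 and 6.89 TPM, below Itgb3 by the same measure, 9.48 and 8.49. The ratio of Itgav to its 4 beta partners other than Itgb1 was 0.772 and 0.575 by gene TPM and 0.0911 and 0.0899 by the full-length measure, so which subunit is scarcer in alpha v beta 3 also changed: Itgb3 by gene TPM and Itgav by both other measures.

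Itgb6 was at 18.9 and 22.2 TPM by gene but at 2.07 and 1.78 over complete coding transcripts. A 249-base non-coding model, Itgb6-206, held 9.89 and 16.9 TPM from only 14.1 and 30.2 counts. The direction between the libraries turned with the measure, since total Itgb6 counts were 915 and 593, a log2 ratio of 0.59, while gene TPM was lower in replicate 1. Itgb6-209, a coding model not counted as complete, held 555 and 273 counts and 36.6% and 15.4% of the gene's TPM, beside 341 and 272 counts for the complete Itgb6-202. The full-length measure gave 5.44 and 3.57 TPM. Itgb6 was below Itgb3 by both other measures in each library.

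Itga6 was at 10.2 and 11.9 TPM over complete coding transcripts and at 33.4 and 31.9 by the full-length measure. By the latter it was below Itga7, at 34.4 and 30.4 TPM, in replicate 1 and above it in replicate 2. The non-coding models Itga6-206, with 4 exons, and Itga6-203, with 3 exons, held 55.2% and 53.8% and 20.9% and 20.7% of its TPM. Itgb4 exceeded Itga6 by 1.31- and 1.70-fold by gene TPM, by 2.41- and 2.89-fold by the full-length measure and by 8.67- and 8.49-fold over complete coding transcripts. Itgb4 was above Itga6 by all 3 measures in both libraries, and the size of the excess depended on the measure.

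The other members named for a large second transcript followed the same pattern with smaller gaps. Lama5-201 held 27.2 and 30.5 TPM and the 451-base Lama5-202 held 17.3 and 24.9. Lama4-207, a retained intron model of 511 bases, held 59.5% and 52.6% of Lama4 TPM, and complete Lama4 was at 7.86 and 8.42 TPM. By complete coding transcripts Lama4 was therefore below Lama3 in replicate 1 and above it in replicate 2, so the order of those chains rests on the measure. Lamb2-205 held 28.0% and 29.8% of Lamb2, and Lamc1-204 held 41.3% and 44.2% of Lamc1. Itga9-203, a non-coding model of 603 bases, held 53.7% and 42.9% of Itga9. Lamb3, Itgb4, Itga3, Itgb5, Itga5, Itga7, Lamb1 and Itgb1 kept at least 84.4% of their TPM in complete coding transcripts in each library. For Itga5 and Itga7 this share was fixed at 100%, since each had only 1 quantified transcript. Lamb3 and Itgb4 stayed above every other laminin and beta chain, respectively, by all 3 measures.

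**Figure D3:**
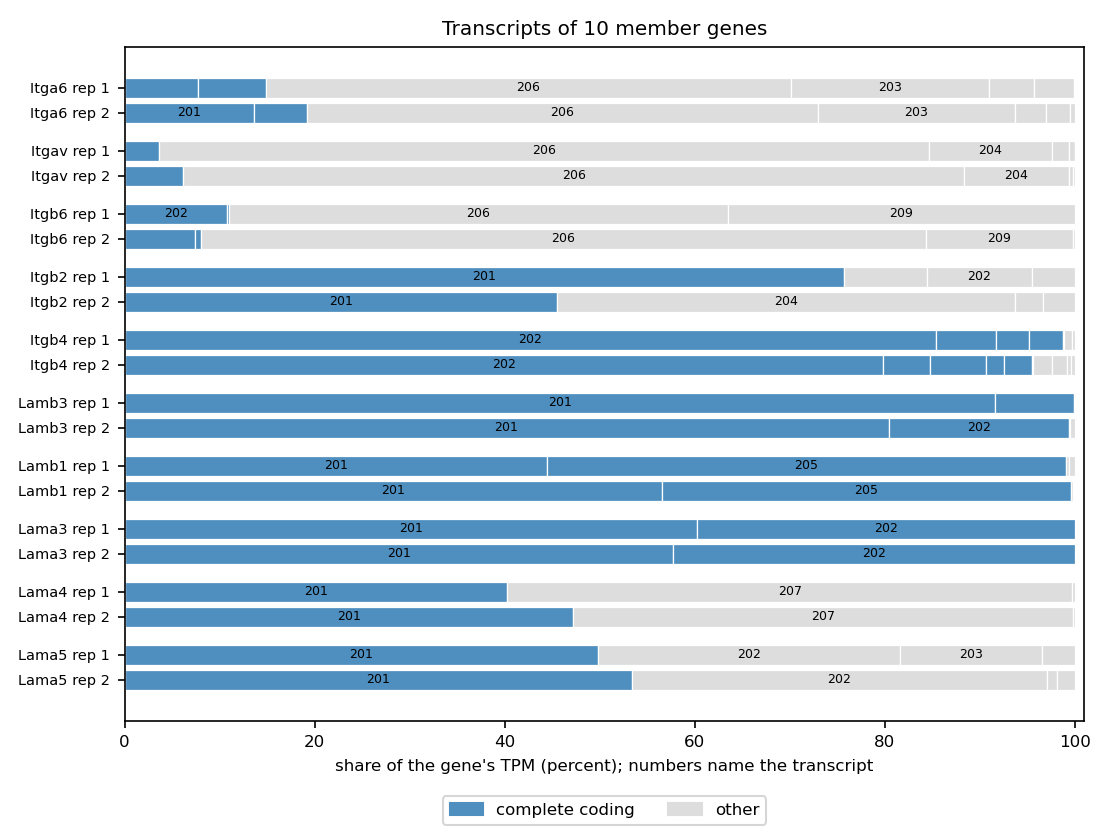
Share of each gene's TPM (percent) by transcript in both libraries for 10 members, with complete coding transcripts in blue and others in grey; numbers name the transcript. Grey fills most of Itga6, Itgav and Itgb6 in both libraries, and Itgb2-204 is large only in replicate 2.

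The Itga6 complete coding transcripts differ in the last coding exon, which sets the cytoplasmic tail, the A form with Itga6-201 and the B form with Itga6-202. Both ends are shown because the read split between them differed between the libraries. Itga6-201 includes an exon of 130 bases at chr2:71853534-71853663 (GRCm38, plus strand), which holds the last 105 coding bases, a stop codon and 22 bases after it. Itga6-202 skips that exon and codes for 159 more bases in its last exon, up to a stop codon ending at chr2:71856015. Each sequence starts with the last 20 bases of the shared exon before, and capitals mark the stop codon:
Itga6-201: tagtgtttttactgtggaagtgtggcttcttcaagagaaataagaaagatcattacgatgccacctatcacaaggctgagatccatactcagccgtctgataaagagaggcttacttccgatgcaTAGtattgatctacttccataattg
Itga6-202: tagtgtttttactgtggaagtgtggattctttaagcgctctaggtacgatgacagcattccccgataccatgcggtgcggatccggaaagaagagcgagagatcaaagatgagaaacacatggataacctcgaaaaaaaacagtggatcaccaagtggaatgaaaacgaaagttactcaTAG

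Itga6-201 measured 5.32 and 8.42 TPM and Itga6-202 measured 4.88 and 3.48 TPM. The exon was thus held by 52.2% and 70.8% of complete Itga6 TPM, above 50% in both libraries. The transcripts also differ in the first exon, so the split does not rest on these tails alone. Counting Itga6-203, which is annotated on both sides of the exon and lacks it, the share was 21.7% and 34.0%.

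In Itgb4, the main choice was an exon of 159 coding bases in the stretch that encodes the cytoplasmic tail, at chr11:116005897-116006055 (GRCm38, plus strand). It is a multiple of 3, so the frame continues without it. The exon is shown in capitals with 20 bases on either side, above the join that lacks it:
Itgb4-204: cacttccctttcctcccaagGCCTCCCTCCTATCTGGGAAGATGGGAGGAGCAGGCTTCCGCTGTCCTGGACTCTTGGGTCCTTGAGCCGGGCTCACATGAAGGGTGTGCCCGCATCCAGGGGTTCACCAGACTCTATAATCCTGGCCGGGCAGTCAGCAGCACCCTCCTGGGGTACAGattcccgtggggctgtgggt
Itgb4-202: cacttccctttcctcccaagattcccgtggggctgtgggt

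Itgb4-202, without the exon, measured 76.4 and 84.4 TPM, or 85.3% and 79.8% of the gene. The transcripts Itgb4-201, Itgb4-204 and Itgb4-210, which hold it, summed to 8.91 and 11.6 TPM against 79.5 and 89.5 TPM for the complete transcripts without it. The exon was therefore in 10.1% and 11.5% of complete Itgb4 TPM, close in both libraries.

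Itgb2 had a large transcript difference between the libraries and was chosen after its values were seen, as were Itga6-201, Itgb4, Lamb3 and Lama3 in these paragraphs. Itgb2-201 measured 6.18 and 3.84 TPM. Itgb2-204, annotated as subject to nonsense-mediated decay, measured 0.71 and 4.06 TPM, from 62.2 and 354 counts. The gene total hardly differed, at 729 and 764 counts. Itgb2-204 lacks an exon of 245 coding bases at chr10:77559479-77559723 (GRCm38, plus strand), which is not a multiple of 3, and reaches a stop codon 28 bases into the next exon. The exon in Itgb2-201 and the stop codon in Itgb2-204 are in capitals:
Itgb2-201: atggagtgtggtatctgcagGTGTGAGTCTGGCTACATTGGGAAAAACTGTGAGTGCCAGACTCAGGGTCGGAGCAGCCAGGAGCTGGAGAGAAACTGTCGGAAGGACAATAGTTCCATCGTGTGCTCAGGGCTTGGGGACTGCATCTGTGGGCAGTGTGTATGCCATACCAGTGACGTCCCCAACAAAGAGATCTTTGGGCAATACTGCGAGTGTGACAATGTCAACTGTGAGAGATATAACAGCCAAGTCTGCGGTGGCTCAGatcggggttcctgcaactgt
Itgb2-204: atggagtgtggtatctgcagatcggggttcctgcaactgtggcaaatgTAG

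Of the Itgb2 transcripts annotated on both sides of that exon, those holding it had 85.1% and 46.9% of the TPM. Both transcripts also differ at their ends, and the 2 libraries give no test of a difference in share beyond counting.

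The Lama3, Lamb3 and Lamb1 genes showed other choices. Lama3-201, with 75 exons and 10548 bases, and Lama3-202, with 38 exons and 5551 bases, correspond to a long and a short alpha 3 chain of 3330 and 1724 codons. The long form held 60.2% and 57.7% of Lama3 TPM and the short form 39.8% and 42.3%. For Lamb3, both transcripts share their coding sequence, and Lamb3-202 starts 250 bases downstream of Lamb3-201 (chr1:193302243 against chr1:193301993, GRCm38, plus strand). The downstream start held 8.28% and 19.0% of Lamb3 TPM, or 941 and 2410 counts. For Lamb1, Lamb1-205 led in replicate 1 with 54.6% and 43.0%, and Lamb1-201 led in replicate 2 with 44.5% and 56.5%. They differ in the first exons and in the length of the last exon.

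No member was called different between the libraries by the exact binomial test. The count of 0 of 37 stood against a background of 6.35% of all genes tested and 4.56% of protein-coding genes. The background split into 2.54% of genes with more counts in replicate 1 and 3.81% with more in replicate 2. Without the fold threshold 26 of 37 members passed (70.3%), against 49.4% of all genes tested. Of these, 14 members (37.8%) were higher in replicate 1 and 12 (32.4%) in replicate 2, against 25.4% and 24% of all genes. Where counts are high this test passes small log2 ratios, such as 0.09 for Itgb5 and -0.1 for Lamb2. At an unadjusted p under 0.05 in the same test stood 26 members (70.3%), against 54.3% of all genes. The exact test of edgeR used the common dispersion, a biological coefficient of variation of 0.272, estimated from the difference between these same 2 libraries. That difference thus counted as noise, so few calls could follow. By edgeR's test 0 members were called and 0 had an unadjusted p under 0.05, against 1.33% and 4.23% of all genes. The members' log2 ratios of replicate 1 over replicate 2 had a median of -0.06 and ran from -0.96 to 0.88, against a median of -0.01 over all genes tested. Their median absolute ratio was 0.20, against 0.23.

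**Figure D4:**
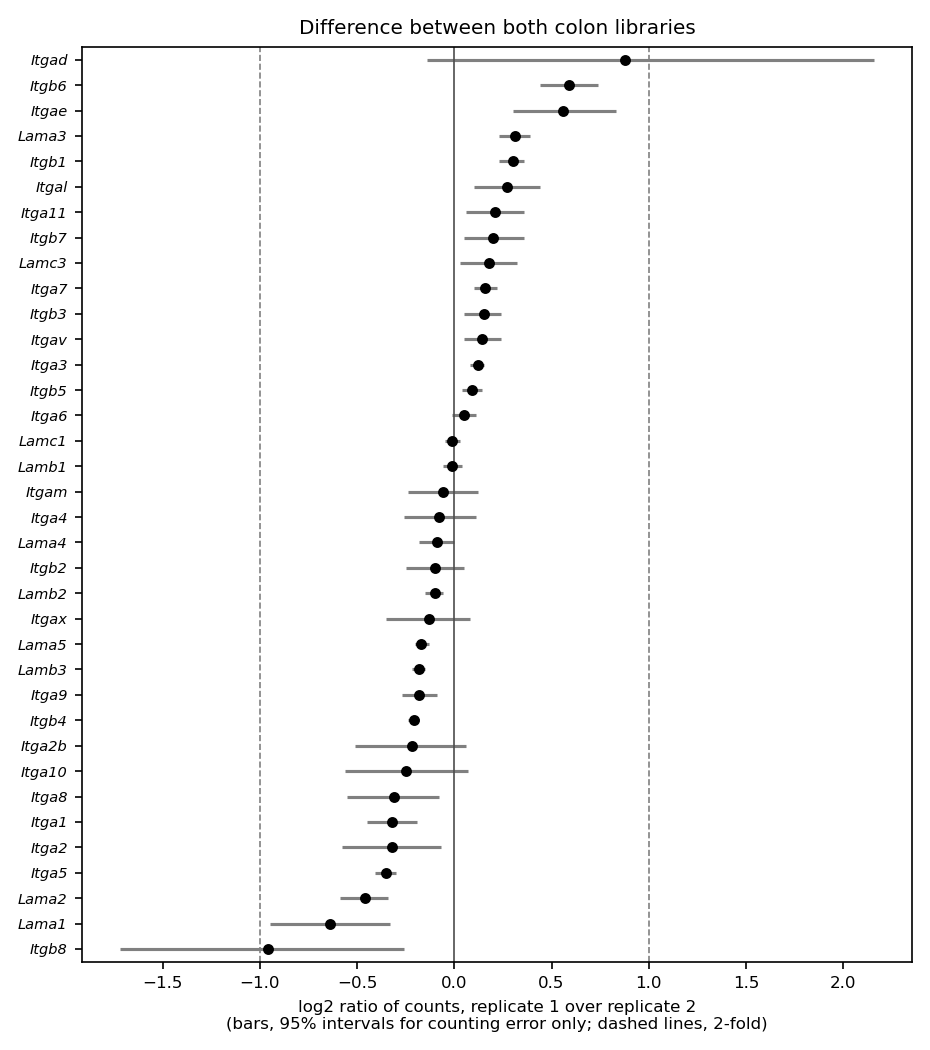
Log2 ratio of counts, replicate 1 over replicate 2, for 36 members, with 95% intervals for counting error and dashed lines at 2-fold. Each point lies between the dashed lines, and Itgad and Itgb8, with the fewest counts, have the widest intervals.

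The widest ratios belonged to members with few counts. Itgb8 had 26 and 50 counts and a log2 ratio of -0.96 (95% interval -1.72 to -0.26), and Itgad had 21.6 and 11.2 counts and a ratio of 0.88 (-0.14 to 2.16). Among members over 10 TPM, Itgb6 had a log2 ratio of 0.59 (0.44 to 0.74), Itga5 of -0.35 (-0.41 to -0.30) and Itgb1 of 0.30 (0.23 to 0.36). Lamc1 and Lamb1 each had a ratio of -0.01, with adjusted p of 0.72 and 0.71 in the exact binomial test. Lama3 was higher in replicate 1 by count, at 0.31, while Lamb3 was lower there, at -0.18.

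The partner genes were broadly expressed. Of 16 other basement membrane genes, 12 were detected, led by the collagen IV chains Col4a1 at 95.7 and 93.0 TPM and Col4a2 at 67.9 and 71.6 TPM and by perlecan, Hspg2, at 49.0 and 72.6 TPM. No gene of this list was called different, although Hspg2 had a log2 ratio of -0.78, wider than that of any detected laminin or integrin gene. Of 7 other laminin receptors, 6 were detected, led by Rpsa at 1103 and 1107 TPM, Sdc1 at 182 and 220 TPM and Sdc4 at 96.9 and 103 TPM. Rpsa has many processed pseudogenes, so its level is uncertain.

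Hemidesmosome partners of alpha 6 beta 4 were present except for Col17a1. The tetraspanin Cd151 measured 360 and 310 TPM, plectin, Plec, 145 and 148 TPM, and Dst 56.1 and 52.4 TPM. Col17a1, the transmembrane collagen of complete hemidesmosomes, measured 0.68 and 0.24 TPM. Beside the laminin 332 and alpha 6 beta 4 genes, the 6 markers of stratified squamous epithelium, led by Krt14, Krt5 and Krt13, summed to 2.33 and 1.29 TPM, and Trp63 was at 0.05 in both libraries. Krt5 and Krt13 of that list were called higher in replicate 1, at 0.40 and 0.07 and at 0.28 and 0.08 TPM. Their part in the Itgb4 and Lamb3 levels was not tested.

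All 27 integrin activators and adaptors were detected and none was called different. Filamin A, Flna, led at 888 and 939 TPM, followed by Actn4 at 557 and 562 TPM and paxillin, Pxn, at 165 and 174 TPM. The kindlins, which activate integrins, were all present: Fermt1 of epithelia at 33.4 and 36.8 TPM, Fermt2 at 18.3 and 17.6 TPM and Fermt3 of blood cells at 13.9 and 13.0 TPM. Of 24 ligands outside the laminins, 19 were detected, led by Cdh1, the ligand of alpha E beta 7, at 325 and 346 TPM, Fn1 at 225 and 244 TPM and Mfge8 at 156 and 141 TPM. The ligand called different was Spp1, at 0.27 and 1.23 TPM (1 of 21 tested). All 6 tetraspanins were detected, led by Cd81, Cd151 and Cd9. Madcam1, the homing ligand of alpha 4 beta 7, measured 5.38 and 3.61 TPM; it and the kindlins were chosen after their values were seen.

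Markers of 4 further compartments that carry laminins or integrins were also summed. The fibroblast list summed to 663 and 777 TPM, led by Fbln1, Col3a1 and Col1a2. The blood endothelium list summed to 175 and 176 TPM, led by Egfl7, Tie1 and Esam. Enteric glia and nerve genes summed to 77.9 and 69.7 TPM, led by Uchl1, Tubb3 and Sox10, and mesothelial genes to 26.1 and 16.6 TPM, led by Upk3b, Msln and Lrrn4. No gene of these 4 lists was called different between the libraries.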

How the data were processed

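Poly-A+ RNA of mouse colon was measured in 2 libraries. The deposited gene and transcript tables, 1 per library, hold expected counts that the authors estimated from alignments to the transcriptome, TPM scaled by the authors over all features, and, in the transcript tables, each transcript's percent of its gene. Per the notes deposited with the libraries they were made on mm10 with GENCODE M4; versions of the aligner and quantifier were not given in those notes. Tables of contigs and junctions on mm9 were not used. Biotypes, exons and complete coding transcripts came from GENCODE vM21 (GRCm38) by identifier without version: 179 of the members' 181 transcripts matched, and the other 2 had 0 counts. Sequences came from the vM21 transcripts.

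Counts were rounded and compared by a two-sided exact binomial test on TMM-scaled library sizes (edgeR 4.0.16, R 4.3.3; scipy 1.17.1), where a gene's summed count reached 10, adjusted over all genes; above 2000 counts the smaller tail was doubled. Ratios used an added count of 0.5. Intervals cover counting error only. In simulated data for replicate 1 against replicate 2 without biological variation, 200 of 200 genes changed by a log2 of 2 were recovered with 3 false calls among 17750 genes. DESeq2 1.42.0 size factors were an alternative. Both values were given for each member reaching a TPM of 1 in a library. Of each partner or marker list the 3 highest by mean TPM were named, plus genes called different. Transcripts were named where a member's mean TPM reached 10 and a second transcript held 20% or more. Apart from the choices stated above as made after values were seen, some further names were picked outside these rules. They were the genes Col17a1, Trp63, Gp9, Gp1ba and S100a8, the retained intron model of Itga8 and the transcripts of Itgav. The second Itgav transcript held 12.9% and 11.0% of that gene's TPM. The members and lists were chosen with earlier results of these data known; the complete coding and full-length measures were added after seeing the data. The values of 1 member and 1 marker gene are not reported here, though counts and sums over the members and lists include them.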

Additional observations from a re-analysis of the deposited data

How the results depend on the processing

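With 2 libraries of 1 group, the values describe these libraries. No paired analysis was possible because there was 1 group and no second group to pair with. The number of members detected was 34 with posterior mean TPM, with rescaled TPM, with a TPM threshold of 0.5 and from either library alone, 32 with complete coding transcripts and 33 with the full-length measure; at a TPM of at least 5 it was 21. The class sums moved with the scale. Rescaling to protein-coding genes without acinar and mitochondrially encoded genes gave 407 TPM for laminins, 406 for alpha subunits and 285 for beta subunits. Complete coding transcripts gave 257, 204 and 216 TPM, and the full-length measure gave 247, 232 and 213 TPM. Without either replicate the sums ran from 339 to 354, from 335 to 357 and from 240 to 245 TPM. Complete coding transcripts moved 14 members' mean levels by over 1.5 times, the full-length measure 11, and posterior mean TPM 1, Itgad, from 0.125 to 0.35. No member was called different between the libraries under DESeq2 size factors, unscaled totals, no minimum count or a minimum of 100 (35 members tested). None was called by edgeR's exact test either, but its dispersion came from the same 2 libraries. In the exact binomial test at a log2 ratio of at least 0.58, 3 were: Itgb6 at 0.59, Lama1 at -0.64 and Itgb8 at -0.96. They made up 8.11% of the members, against 12.4% of all genes. No ratio changed sign under these scaling, filter and threshold settings. With counts of complete coding transcripts alone, some did: Itgav from 0.14 to -0.32, Itga6 from 0.05 to -0.25, Itgb2 from -0.1 to 0.67 and Lamc1 from -0.01 to 0.01. A complete coding transcript led 29 members by TPM, 30 in either library alone and 34 by counts.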
